A study of Mus musculus with 27 samples.

Results

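Recruited alveolar macrophages taken on day 6 after lung injury were compared with recruited alveolar macrophages taken on day 3. The comparison used the 6 of 27 libraries of the series whose column names give recruited cells on day 6 or day 3, and all 13599 of 38124 genes that passed a filter on low counts. Both groups came from C57B/6 mice of 8 to 14 weeks that had received lipopolysaccharide (LPS, a component of the bacterial outer membrane) into the trachea, labelled as 20 nanograms in 50 microliters of buffered saline, so the groups share the injury and differ in the time after it. Cells were washed from the airspaces and sorted as CD11c-CD11b+, and polyadenylated RNA was sequenced. The tested libraries were 3 of day 6 and 3 of day 3. For the test of a difference between populations, resident macrophages (CD11c+CD11b-) of the same mouse strain, age range, treatment and days gave 3 libraries a day. Whether each library is its own animal is not stated in the labels. The p-values measure only the spread between libraries of a group, which may be technical. That spread was estimated over all 27 libraries of the series, so it also reflects other days and resident cells.

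When the lung is injured, monocytes leave the blood, enter the airspaces and become macrophages there, beside the resident alveolar macrophages that were already present. Early after a bacterial stimulus such cells are known for making cytokines, chemokines, nitric oxide and interferon-driven antiviral proteins. Later they are known for clearing dead cells, handling the lipid taken up with them and making growth factors.

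Counts assigned to genes were 13525339, 11093216 and 14540478 in the day 6 libraries and 15537007, 13931258 and 14599517 in the day 3 libraries. The second library of day 6 stood apart: reads outside any annotated gene were 26.5% there and 6.77% to 13% in the other 26 libraries, so a list's count is also given without it where that changes it. Reads of genes encoded by mitochondrial DNA were 1.74%, 1.45% and 1.16% of counts on day 6 and 0.875%, 0.817% and 0.886% on day 3, without overlap, and their part in the results was not tested. Genes of the macrophage lineage were present throughout. Csf1r, the receptor of the growth factor that macrophages need, had 1721, 1631 and 1729 CPM (counts relative to library size, scaled by TMM factors) on day 6 and 2340, 2216 and 2837 CPM on day 3. Itgam, which encodes CD11b, had 2042, 2165 and 2418 CPM on day 6 and 2249, 3035 and 3778 CPM on day 3. Itgax, which encodes the CD11c that the gate excluded, had 313, 289 and 305 CPM on day 6 and 306, 201 and 148 CPM on day 3. Neither gate gene passed the test, with adjusted p = 0.527 for Itgam and 0.0808 for Itgax (edgeR), and without the first library of day 3 Itgax rose (log2 change 0.79, adjusted p = 0.0034). Neutrophil markers fell alongside the changes described here: 9 of 13 were lower on day 6 (median log2 change -2.56), and the summed level of the 16 listed markers was 393 to 470.2 CPM on day 6 and 1501 to 2644 CPM on day 3. That count was 4 of 13 without the second library of day 6, without the first of day 6, without the third of day 3 or with DESeq2. Lcn2, whose level is given below with the inflammatory genes, is also on the neutrophil list and made up much of the day 3 sum. Neutrophils carry CD11b and lack CD11c, and the labels name no further marker of the sort. Their part in the changes was not tested. Epithelial markers summed to 75.6 to 90.7 CPM on day 6 and 61.7 to 81.6 CPM on day 3, with 0 of 11 passing the test. T and NK cell markers summed to 91.7 to 145.9 CPM on day 6 and 69.0 to 135.1 CPM on day 3. Endothelial and stromal markers summed to 249 to 400.0 CPM on day 6 and 79.6 to 133 CPM on day 3. Most of the day 6 sum was Vwf, von Willebrand factor, with 253, 387 and 235 CPM on day 6 and 63.8, 64.5 and 31.4 CPM on day 3, while the endothelial genes Pecam1 (-2.73) and Kdr (-2.64) and the stromal gene Pdgfrb (-1.69) were lower on the log2 scale. Pdgfrb was not called without the first or the third library of either day (adjusted p between 0.056 and 0.10, edgeR). Their part in the changes was not tested either.

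On day 6 recruited macrophages had far less RNA of inflammatory mediators such as Nos2 and Il1b, of interferon-driven genes such as Cxcl10 and Isg15, and of the monocyte marker Ly6c2. Monocyte genes as a list were mixed, with 11 of 26 lower and 4 higher. Recruited macrophages of day 6 had more RNA of Apoe, the mannose receptor Mrc1, the lipid sensor Trem2, the dying-cell receptors Mertk and Axl, and some lysosomal enzymes. Of the 13599 genes, 4332 differed between the days at an adjusted p under 0.05 (edgeR, quasi-likelihood F test), 31.9% of those tested. 2051 were higher on day 6 (15.1%) and 2281 were lower (16.8%). Without the second library of day 6 the test called 3442 genes (25.3%), 1653 higher and 1789 lower, and 3361 of these were among the 4332. Scaling by library size alone put the median log2 change at 0.095 and made 57.4% of the 4080 calls higher, against 0.012 and 47.4% with TMM. Of all genes, 807 rose (5.93%) and 885 fell (6.51%) by at least 2-fold. By at least 4-fold 217 rose (1.6%) and 407 fell (2.99%). The libraries of the days did not overlap for 43.4% of all genes tested. The members of each list below are to be read against these shares. Genes named by size from a list, or as most raised or lowered, had to be called and to have no overlap. For them the lack of overlap adds no support. In bulk samples fewer cells of a type and less RNA per cell cannot be told apart.

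Inflammatory mediators fell steeply. Of 30 inflammatory cytokines, chemokines and enzymes tested, 24 were lower on day 6 and 1 was higher, with a median log2 change of -3.56, against 0.01 over all genes. Without the second library of day 6 the counts were 23 and 1. Nos2 (ENSMUSG00000020826, chr11:78920787-78960254 in GRCm38), which encodes inducible nitric oxide synthase, had 13.6, 14.1 and 9.76 CPM on day 6 and 1402, 3801 and 1946 CPM on day 3. Each day 6 library lay far below each day 3 library, and the log2 change was -7.58 ± 0.47, adjusted p = 1.31e-09 (± SE, edgeR), a 191-fold lower level. Acod1, the enzyme that makes itaconate in activated macrophages, had 41.5, 33.8 and 60.1 CPM on day 6 and 2143, 3416 and 2872 CPM on day 3. Lcn2, an iron-trapping protein that starves bacteria, is also on the neutrophil list. It had 23.5, 26.2 and 21.9 CPM on day 6 and 971, 1547 and 1209 CPM on day 3. Both fell without overlap, with log2 changes of -5.96 ± 0.70 for Acod1 and -5.70 ± 0.81 for Lcn2.

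Among the cytokines, Il1b, the gene of the fever-inducing cytokine IL-1β, had 202, 87.7 and 83.1 CPM on day 6 and 1051, 1793 and 1267 CPM on day 3. The first day 6 library was the highest of its group and still under every day 3 library (log2 change -3.46 ± 0.55, adjusted p = 7.38e-05, edgeR). Tnf had 9.31, 16.3 and 13.6 CPM on day 6 and 162, 329 and 182 CPM on day 3, again with no overlap (log2 change -4.10 ± 0.69, adjusted p = 1.4e-04, edgeR). Ccl2, which draws in CCR2-bearing monocytes, had 10.5, 11.8 and 21.3 CPM on day 6 and 133, 239 and 213 CPM on day 3. The last day 6 library was the highest of its group and well below day 3 (log2 change -3.74 ± 0.57, adjusted p = 5.14e-05, edgeR). Il6 was scarce on both days, with 0.806, 2.04 and 0.208 CPM on day 6 and 9.05, 24.9 and 10.6 CPM on day 3. Its groups did not overlap, and its log2 change of -3.91 ± 0.88 was -4.86 without the second library of day 6 and -3.31 without the second of day 3. Csf3, the gene of the neutrophil growth factor G-CSF, had 3 counts over the day 6 libraries and 531 over those of day 3, a level 167-fold lower on day 6 (95% exact counting interval 56.7 to 811, which covers counting error only).

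Ccl6 was the single inflammatory gene that rose. This chemokine gene had 2359, 3399 and 2026 CPM on day 6 and 812, 968 and 415 CPM on day 3, with no overlap (log2 change 1.83 ± 0.29, adjusted p = 4.91e-05, edgeR). Il18, Cxcl16, Ccl8, Ccl9 and Csf1 did not pass the test.

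Restraining genes of the inflammatory response fell with it in part. Of 20 feedback and anti-inflammatory genes, 9 were lower and 4 were higher on day 6, also without the second library of day 6. Tnfaip3, which encodes the ubiquitin-editing inhibitor A20, had 94.9, 106 and 108 CPM on day 6 and 468, 1617 and 1019 CPM on day 3. Il1rn, the gene of the IL-1 receptor antagonist, had 165, 138 and 128 CPM on day 6 and 905, 1689 and 781 CPM on day 3. Both were lower in every day 6 library, with log2 changes of -3.33 ± 0.57 for Tnfaip3 and -2.97 ± 0.22 for Il1rn. Il10, the gene of the anti-inflammatory cytokine IL-10, had 1 count over the day 6 libraries and 122 over those of day 3, 115-fold lower with a counting interval of 20.2 to 4575. Cd200r1, an inhibitory receptor of myeloid cells, went the other way, with 134, 131 and 115 CPM on day 6 and 48.1, 50.5 and 41.4 CPM on day 3 (log2 change 1.44 ± 0.14, adjusted p = 9.08e-08, edgeR). Tgfb1 had 537, 512 and 438 CPM on day 6 and 368, 388 and 345 CPM on day 3, a small gain of 0.43 ± 0.13 (adjusted p = 0.0151, edgeR) that was not called without the third library of day 3 (adjusted p = 0.063).

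**Figure D1:**
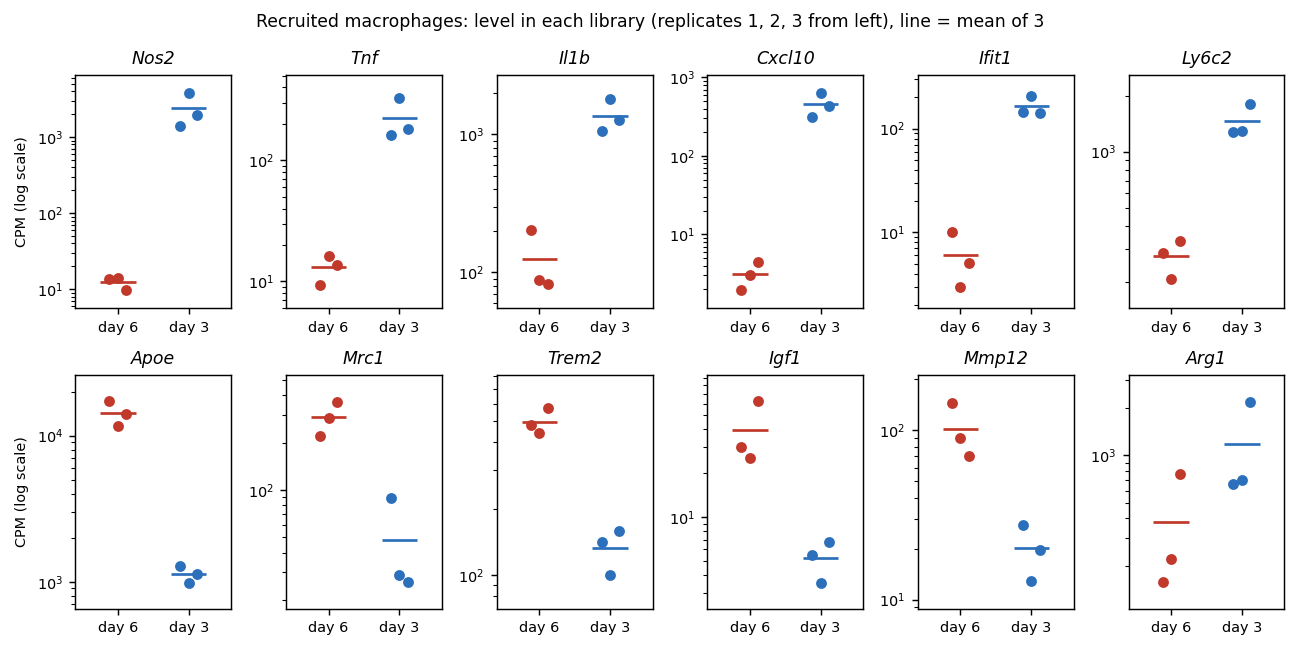
Level of 12 genes in each library of recruited macrophages, in CPM on a log scale, day 6 left of day 3; points are replicates 1, 2 and 3 from left to right and lines are means of 3. Nos2 lies between 9.76 and 14.1 CPM on day 6 and above 1000 CPM in every day 3 library, Apoe shows the opposite order, and for Arg1 the days overlap.

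Interferon-driven genes fell as a group. The promoters of 3 of them, and of Il6, are shown because they carry the DNA motifs by which these programmes are known to be switched on. They are 300 bases each from RefSeq (GRCm38.p6), 250 before and 50 after the start of the gene, written on the gene's strand 5′ to 3′. Capitals mark, on either strand, the core of the interferon-stimulated response element (ISRE: GAAA, 2 bases of any kind, GAAA) in the first 3 and a consensus of NF-κB (GGG, 2 bases of any kind, TTTCC) in Il6.  
Isg15, chr4:156200769-156201068, minus strand: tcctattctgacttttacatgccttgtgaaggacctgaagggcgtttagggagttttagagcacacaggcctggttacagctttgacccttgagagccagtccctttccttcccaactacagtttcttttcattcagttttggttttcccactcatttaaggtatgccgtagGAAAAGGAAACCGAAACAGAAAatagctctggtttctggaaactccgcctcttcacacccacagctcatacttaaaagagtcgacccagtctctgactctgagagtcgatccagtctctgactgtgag
Rsad2, chr12:26456403-26456702, minus strand: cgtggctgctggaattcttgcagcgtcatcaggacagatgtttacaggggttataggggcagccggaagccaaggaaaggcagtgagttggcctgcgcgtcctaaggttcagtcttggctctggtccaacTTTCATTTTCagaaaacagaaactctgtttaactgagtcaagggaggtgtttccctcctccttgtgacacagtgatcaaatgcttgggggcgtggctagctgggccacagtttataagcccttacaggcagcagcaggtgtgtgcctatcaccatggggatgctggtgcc
Ifit1, chr19:34640639-34640938, plus strand: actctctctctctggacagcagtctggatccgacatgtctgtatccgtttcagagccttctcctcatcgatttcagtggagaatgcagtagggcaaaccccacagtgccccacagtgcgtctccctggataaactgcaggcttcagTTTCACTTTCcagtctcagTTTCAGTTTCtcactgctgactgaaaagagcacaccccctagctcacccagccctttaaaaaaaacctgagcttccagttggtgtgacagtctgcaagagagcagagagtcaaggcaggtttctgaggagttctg
Il6, chr5:30012864-30013163, plus strand: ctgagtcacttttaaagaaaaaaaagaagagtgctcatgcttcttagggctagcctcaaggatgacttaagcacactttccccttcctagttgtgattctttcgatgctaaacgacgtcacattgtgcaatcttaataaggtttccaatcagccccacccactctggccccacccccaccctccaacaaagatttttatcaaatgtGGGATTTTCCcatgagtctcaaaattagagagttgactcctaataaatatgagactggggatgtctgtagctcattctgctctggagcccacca

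The Isg15 promoter held 3 overlapping matches that began 78, 72 and 66 bases before the start, Ifit1 held 2, and Rsad2 and Il6 held 1 each. Among interferon-stimulated genes with a promoter in the table, 14 of 28 (50.0%) held the ISRE core, against 3.99% of all 27025 genes in it and 3.94% of those tested. Among the inflammatory genes, 6 of 22 (27.3%) held the NF-κB consensus, against 1.89% of all and 2.02% of those tested. These matches describe the letters in the window and show no binding.

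Of 38 interferon-stimulated genes tested, 37 were lower on day 6 and 0 were higher, with a median log2 change of -2.59. Without the second library of day 6, 36 were lower. Isg15, a ubiquitin-like protein conjugated to others in the antiviral state, had 7.91, 4.27 and 6.44 CPM on day 6 and 188, 277 and 213 CPM on day 3 (log2 change -5.17 ± 0.54, adjusted p = 5.22e-07, edgeR). Rsad2, which encodes the antiviral enzyme viperin, had 17.9, 5.57 and 12.0 CPM on day 6 and 267, 489.8 and 251 CPM on day 3. Ifit1, an RNA-binding inhibitor of viral translation, had 10.2, 2.97 and 5.05 CPM on day 6 and 145, 207 and 143 CPM on day 3. For all 3 genes the first day 6 library was the highest and the second the lowest of the group, and no library of day 6 reached the lowest of day 3. Irf7, the transcription factor that amplifies interferon production, kept that order, with 132, 51.7 and 72.1 CPM on day 6 and 639, 741 and 760.3 CPM on day 3 (log2 change -3.07 ± 0.59, adjusted p = 5.38e-04, edgeR). The member that did not pass was Lgals3bp, with a log2 change of -0.60 ± 0.30, and it passed in a fit of the 6 libraries alone (adjusted p = 0.022).

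All 17 tested members of the list of interferon-γ-induced genes were lower on day 6, with a median log2 change of -3.52, and all 17 were also lower without the second library of day 6. Cxcl10, a chemokine for activated T cells, had 1.98, 3.06 and 4.43 CPM on day 6 and 310.3, 627 and 426 CPM on day 3 (log2 change -7.16 ± 0.44, adjusted p = 3.51e-10, edgeR). Cxcl9, which acts on the same receptor, had 4.10, 7.06 and 4.36 CPM on day 6 and 242, 519.6 and 174 CPM on day 3. Every day 3 library of both genes lay far above every day 6 library. The log2 change of Cxcl9 was -5.93 ± 0.61, or -5.34 without the second library of day 3. The smallest change of the list was that of Irf8, a factor of the monocyte lineage, with 215, 215 and 211 CPM on day 6 and 259, 303 and 249 CPM on day 3 (log2 change -0.34 ± 0.10, adjusted p = 0.0136, edgeR). Irf8 was not called without the second library of day 3 (-0.25, adjusted p = 0.096), in a fit of the 6 libraries alone (adjusted p = 0.064) or with scaling by library size alone (-0.25, adjusted p = 0.13), so that 16 of the 17 genes induced by interferon-γ were lower there.

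The machinery that cuts and loads peptides for MHC class I followed. Of 16 genes, 14 were lower, with a median log2 change of -1.65, also without the second library of day 6. Psme2, a subunit of the interferon-inducible proteasome activator, had 26.6, 29.7 and 34.3 CPM on day 6 and 182, 193 and 181 CPM on day 3 (log2 change -2.62 ± 0.15, adjusted p = 7.35e-11, edgeR). Tap1, which pumps peptides into the endoplasmic reticulum, had 196, 157 and 121 CPM on day 6 and 629, 724 and 657 CPM on day 3. Neither gene had overlapping groups. B2m and H2-D1 did not pass the test. The list of MHC class II and costimulation genes gave 1 higher and 3 lower of 18. The 3 became 5 without the third library of day 3. The higher one was the protease gene Ctss, not a class II chain. Ciita, the master activator of class II, was lower (-1.76 ± 0.30), whereas H2-Aa (-0.45 ± 0.40), H2-Ab1 (-0.90 ± 0.41) and Cd74 (-0.21 ± 0.34) did not pass. Without the third library of day 3 H2-Ab1 was called (-1.22, adjusted p = 0.033, edgeR). H2-Ab1 had 1038, 529 and 816 CPM on day 6 and 2718, 974 and 751 CPM on day 3, and the first library of day 3 was the highest of the 6 for these 3 genes. Cd40, the receptor through which T cells activate macrophages, fell to 5.50, 2.60 and 5.47 CPM on day 6, against 95, 164 and 76.0 CPM on day 3 (log2 change -4.61 ± 0.46, adjusted p = 1.85e-07, edgeR).

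**Figure D2:**
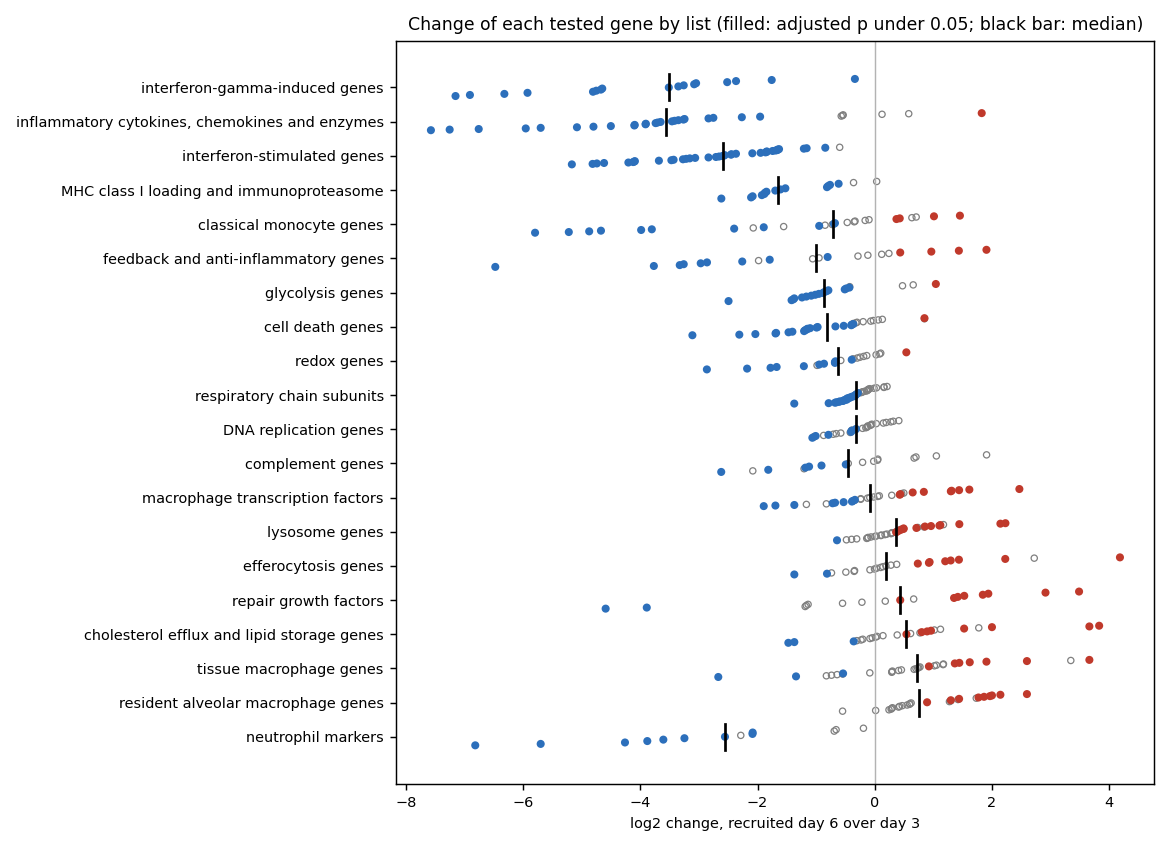
Log2 change of recruited day 6 over day 3 for each tested gene, by list; filled points passed an adjusted p under 0.05 (red higher, blue lower on day 6), open points did not, and black bars are list medians. The inflammatory and both interferon lists lie almost wholly below 0 (medians -3.56, -2.59 and -3.52), while the resident and tissue macrophage lists have medians of 0.76 and 0.72, which were 1.78 without the first library of day 3 and 0.28 without the third of day 6.

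Monocyte genes were lower on day 6 in part. Of 26 listed monocyte genes, 11 were lower and 4 were higher, or 10 and 4 without the second library of day 6. The 4 higher became 2 without the second library of day 3. The summed level of the 26 genes was higher on day 6, with 43280 to 56990 CPM against 30180 to 35190 CPM on day 3. Ly6c2, the surface marker of classical monocytes, had 287, 208 and 331 CPM on day 6 and 1281, 1286 and 1795 CPM on day 3 (log2 change -2.40 ± 0.56, adjusted p = 0.00276, edgeR). The sequence-related Ly6c1 may share reads with it. Plac8, a monocyte and granulocyte gene, had 5.28, 2.04 and 3.32 CPM on day 6 and 134, 279.6 and 189 CPM on day 3. Neither gene overlapped between the days. Ccr2, the receptor that brings monocytes out of the marrow, was not called (log2 change -0.85 ± 0.42, adjusted p = 0.139, edgeR). Its level was 30.3, 44.3 and 137 CPM on day 6 and 85.6, 149 and 147 CPM on day 3, and without the third library of day 6, which reached the day 3 range, the log2 change was -1.77 with an adjusted p of 0.0013. Fn1, fibronectin, was among the listed monocyte genes that rose, with 16070, 18830 and 20050 CPM on day 6 and 5325, 6951 and 7777 CPM on day 3 (log2 change 1.45 ± 0.33, adjusted p = 0.00164, edgeR).

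Pattern recognition genes, a list of microbial sensors and their adaptors, also shifted. Of 29, 12 were lower and 4 were higher, or 9 and 3 without the second library of day 6. Clec4e, a lectin that binds mycobacterial glycolipid, had 205, 119.7 and 184 CPM on day 6 and 1127, 1487 and 1185 CPM on day 3. Cd14, which hands LPS to its receptor, had 651, 743 and 494 CPM on day 6 and 915, 1332 and 1562 CPM on day 3. Both were lower in every library of day 6. Tlr4, the LPS receptor itself, rose slightly, with 192, 182 and 178 CPM on day 6 and 149, 139 and 129 CPM on day 3 (log2 change 0.40 ± 0.14, adjusted p = 0.0326, edgeR), but was not called without the first or the second of day 6 (adjusted p = 0.082 and 0.065) or the second or the third of day 3 (0.074 and 0.12). Clec7a, the β-glucan receptor Dectin-1, rose more, with 1082, 814 and 635 CPM on day 6 and 485, 373 and 261 CPM on day 3 (log2 change 1.18 ± 0.20, adjusted p = 1.14e-04, edgeR). Of 15 chemoattractant receptors, 6 were lower, or 4 without the second library of day 6, and 1 was higher. The formyl peptide receptor genes Fpr1 (-1.88 ± 0.40) and Fpr2 (-2.30 ± 0.44) were among the lower, and Cxcr4 (1.48 ± 0.25) was the higher.

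Apoe had the largest rise among genes that reached 20 CPM. It encodes the lipoprotein that carries cholesterol out of macrophages, and had 17380, 11570 and 14120 CPM on day 6 and 1277, 981 and 1139 CPM on day 3 (ENSMUSG00000002985, chr7:19696109-19699188). Every day 6 library was far above every day 3 library, a 12.7-fold higher level (log2 change 3.66 ± 0.59, adjusted p = 8.48e-05, edgeR). Of 30 genes of tissue macrophages, 7 were higher and 3 were lower, also without the second library of day 6, and the median log2 change was 0.72, or 0.28 without the third library of day 6. Trem2, a lipid-sensing receptor of macrophages in injured tissue, had 481, 440 and 572 CPM on day 6 and 141, 99.4 and 158 CPM on day 3 (log2 change 1.91 ± 0.40, adjusted p = 0.00108, edgeR). Gpnmb, a lysosomal glycoprotein of lipid-laden macrophages, had 3190, 2811 and 3149 CPM on day 6 and 1307, 1089 and 577 CPM on day 3 (log2 change 1.62 ± 0.48, adjusted p = 0.0138, edgeR). Library 3 of day 3 was the lowest for Gpnmb, and without it the adjusted p was 0.073. Mrc1, the mannose receptor, had 222, 288 and 364 CPM on day 6 and 89.1, 28.9 and 26.1 CPM on day 3 (log2 change 2.60 ± 0.41, adjusted p = 5.57e-05, edgeR), and without the first day 3 library, the highest of its group, the log2 change was 3.40. Mrc1 was not called in a fit of the 6 libraries alone with a replicate block (adjusted p = 0.13, edgeR). Csf1r was among the 3 genes that fell (log2 change -0.54 ± 0.12, adjusted p = 0.00183, edgeR).

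Other genes often named with these macrophages did not pass the test. Spp1, osteopontin, had 512, 730 and 3113 CPM on day 6 and 109, 127 and 192 CPM on day 3. The groups did not overlap, but the third day 6 library was far above the others of its group (log2 change 3.35 ± 1.37, adjusted p = 0.0697, edgeR), and DESeq2 called it (adjusted p = 0.015). C1qa, a subunit of complement component C1q, had 449, 208 and 731 CPM on day 6 and 348, 188 and 336 CPM on day 3, with overlap (log2 change 0.67 ± 1.08, adjusted p = 0.678, edgeR). Arg1, the arginase that competes with nitric oxide synthase for arginine, had 159, 221 and 760 CPM on day 6 and 662, 704 and 2179 CPM on day 3. Library 3 was the highest on both days, the groups overlapped and the gene was not called (log2 change -1.64 ± 1.19, adjusted p = 0.32, edgeR). Chil3, a chitinase-like protein of alternatively activated mouse macrophages, had 1490, 2003 and 3214 CPM on day 6 and 2018, 3491 and 3043 CPM on day 3, with overlap. Of 15 alternative activation genes 3 rose (Mrc1, Mgl2 and Irf4) and 1, Tgm2, fell. Mgl2 was not called without the first library of day 6 or the third of day 3 (adjusted p = 0.073 and 0.068), and the fallen were 3 without the first library of day 3 and 2 without the first or the third of day 6. Retnla was below the filter, with 0 counts over the day 6 libraries and 8 over those of day 3. Arginine and polyamine enzymes gave 1 higher and 5 lower of 19, or 0 higher without the third library of day 6, among the lower Ass1 (-1.69 ± 0.27), which rebuilds arginine from citrulline, and the arginine transporter Slc7a2 (-0.97 ± 0.24).

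The 12 most raised genes by the naming rule were Apoe, Ltc4s, Lpin1, Mrgpre, Trf, Amz1, Ramp1, Igf1, C77080, B3gnt7, Timp2 and Zfp704. Trf, transferrin, had 114, 158 and 149 CPM on day 6 and 26.8, 11.6 and 12.6 CPM on day 3 (log2 change 3.04 ± 0.31, adjusted p = 2.5e-07, edgeR). Ltc4s, leukotriene C4 synthase, had 25.6, 37.0 and 30.0 CPM on day 6 and 5.74, 1.89 and 1.38 CPM on day 3 (log2 change 3.33 ± 0.39, adjusted p = 1.97e-06, edgeR). Lpin1, a phosphatidate phosphatase of lipid synthesis, had 102, 131 and 104 CPM on day 6 and 16.8, 12.2 and 5.90 CPM on day 3 (log2 change 3.27 ± 0.33, adjusted p = 2.1e-07, edgeR). The first day 3 library was the highest of its group for these 3 genes, yet below all day 6 libraries, and without it the log2 change of Ltc4s was 4.24. The 12 most lowered were Edn1, Nos2, Cxcl10, Tgtp1, Hdc, Serpina3f, Acod1, Cxcl9, Plac8, Chil1, Lcn2 and Il1f9. Edn1, the vasoconstrictor endothelin-1, had 0, 0.186 and 0.139 CPM on day 6 and 3.85, 57.0 and 44.8 CPM on day 3. The first day 3 library was much lower than the other day 3 libraries and still above day 6 (log2 change -8.30 ± 1.07, adjusted p = 9.33e-06, edgeR, or -7.69 without the first library of day 6). Hdc, the enzyme that makes histamine, had 0.440, 0 and 0.831 CPM on day 6 and 33.8, 75.8 and 38.5 CPM on day 3, without overlap (log2 change -6.74 ± 0.82, adjusted p = 3.04e-06, edgeR, or -7.62 without the third library of day 6).

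Genes that mark resident alveolar macrophages were next examined in the recruited cells. Of 26, 9 were higher on day 6 and 0 were lower, with a median log2 change of 0.76, or 1.78 without the first library of day 3. The count was 8 without the second library of day 6, 14 without the first of day 3 and 5 without the third of day 3. Pparg, the fatty acid sensor that directs the alveolar macrophage fate, had 40.4, 68.8 and 40.6 CPM on day 6 and 18.5, 25.1 and 11.5 CPM on day 3 (log2 change 1.44 ± 0.33, adjusted p = 0.00226, edgeR). Siglecf, a surface lectin of resident cells, had 25.7, 11.8 and 21.2 CPM on day 6 and 11.8, 2.36 and 1.82 CPM on day 3 (log2 change 1.87 ± 0.64, adjusted p = 0.031, edgeR). The first day 3 library came close to the second day 6 library for Siglecf, and without it the log2 change was 3.23, whereas the call was lost without the second or the third of day 3 (adjusted p = 0.12 and 0.13) or the first or the third of day 6 (0.095 and 0.063). Atp6v0d2, a subunit of the lysosomal proton pump, had 375, 494 and 389.7 CPM on day 6 and 128, 116 and 40.6 CPM on day 3 (log2 change 2.15 ± 0.29, adjusted p = 6.15e-06, edgeR). The summed level of the 26 genes was 3101 to 3748 CPM in recruited cells on day 6 and 1330 to 2456 CPM on day 3, while resident cells had 17080 to 18180 CPM on day 6 and 13940 to 14680 CPM on day 3.

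The recruited level was also expressed as a percentage of the resident level of the same day. The median over the 26 genes was 11.1% on day 6 and 4.44% on day 3. Several resident genes were at low shares on day 6, with 3.91% for Siglecf, 3.25% for the keratin gene Krt19, 3.29% for Cidec, which encodes a lipid droplet protein, and 3.30% for Ear1. The day 3 values were 2.75%, 2.39%, 1.87% and 3.06%. Other resident genes had higher shares on day 6, with 27.9% for Pparg, 35.0% for Atp6v0d2 and 119% for the transcription factor gene Bhlhe41, against 11.8%, 9.70% and 31.9% on day 3. The 12 most raised genes were at 23.3% of the resident level or more on day 6, with a median of 71.5%, and 6 of the 12 were higher in recruited than in resident cells. These 12 were chosen for their rise in recruited cells, which favours a high share on day 6. Their shares are a description and no contrast to those of the resident list. The share of any resident cells in the recruited sort was not measured.

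**Figure D3:**
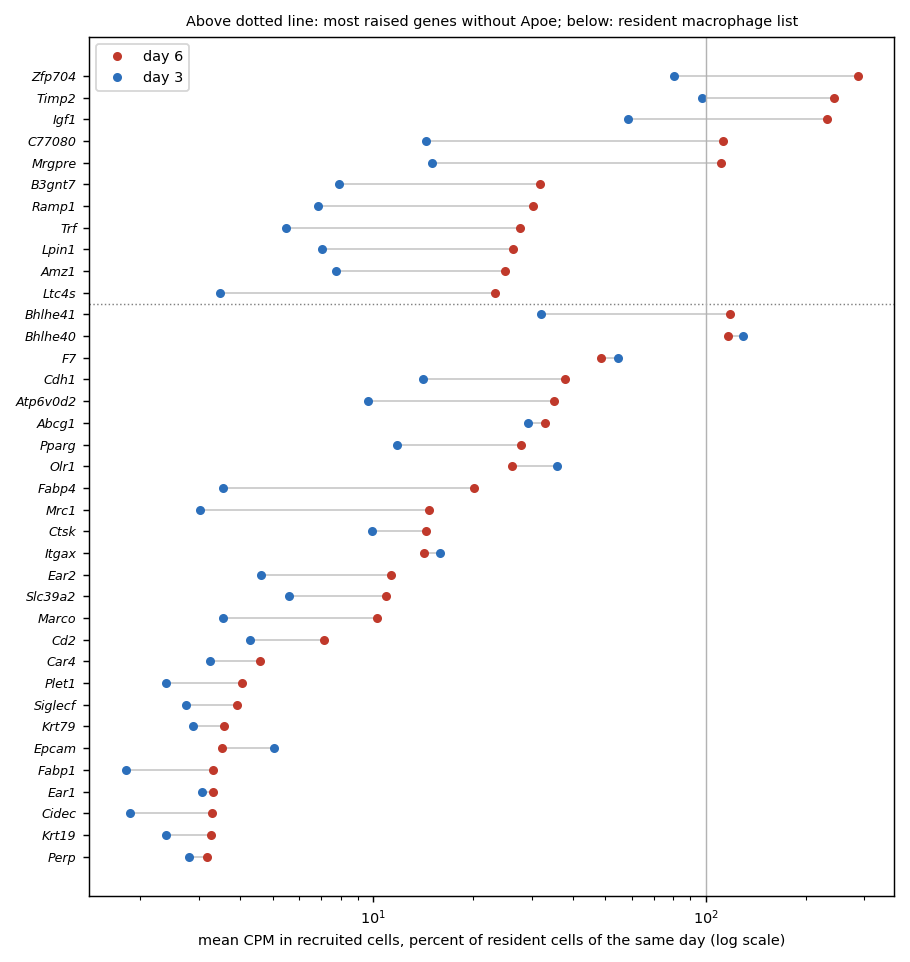
Mean CPM in recruited cells as a percentage of resident cells of the same day, on a log axis, for the 12 most raised genes without Apoe (above the dotted line) and for 26 resident macrophage genes (below it); red is day 6 and blue is day 3, means of 3 libraries. Siglecf, Krt19, Cidec and Ear1 lie between 3.25% and 3.91% on day 6, and the 11 raised genes shown, chosen for their rise in recruited cells, lie at 23.3% or more.

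Growth factors and matrix genes did not move as one. Of 17 repair growth factors, 8 were higher and 2 were lower on day 6, or 6 and 2 without the second library of day 6. The 8 became 5 without the first library of day 3 and 4 without the third. Igf1, insulin-like growth factor 1, had 30.3, 25.4 and 62.9 CPM on day 6 and 5.47, 3.54 and 6.70 CPM on day 3 (log2 change 2.92 ± 1.02, adjusted p = 0.0349, edgeR). The groups were apart, but the call was lost when any library of day 3 or the third of day 6 was left out (adjusted p between 0.076 and 0.11). Pdgfc, a growth factor for fibroblasts, had 9.23, 6.59 and 20.4 CPM on day 6 and 2.03, 0.236 and 0.874 CPM on day 3 (log2 change 3.49 ± 0.60, adjusted p = 1.74e-04, edgeR), or 4.41 without the first library of day 3 and 2.88 without the third of day 6. Hgf, which acts on epithelium, had 43.4, 40.6 and 53.7 CPM on day 6 and 16.3, 18.1 and 17.2 CPM on day 3, without overlap (log2 change 1.42 ± 0.33, adjusted p = 0.00221, edgeR). Vegfa, the vascular growth factor, had 248, 106 and 72.0 CPM on day 6 and 63.7, 61.0 and 42.2 CPM on day 3 (log2 change 1.35 ± 0.51, adjusted p = 0.0494, edgeR). It stood at the threshold: the first day 6 library was far above the others, the log2 change was 0.70 without it (adjusted p = 0.34), and the call was also lost without the second of day 6 or without any library of day 3 (adjusted p between 0.054 and 0.16). Pdgfa did not pass (21.9, 15.5 and 21 CPM on day 6 and 19.2, 8.96 and 8.67 CPM on day 3, log2 change 0.66 ± 0.42, adjusted p = 0.247, edgeR). The epidermal growth factor family gene Areg fell (-3.89 ± 1.09, or between -7.66 and -3.26 when 1 library of day 6 was left out), and Ereg had 1 count over the day 6 libraries and 33 over those of day 3, 31.1-fold lower with a counting interval of 5.2 to 1264.

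Of 25 matrix and matrix-degrading genes, 4 were higher and 8 were lower, or 3 and 6 without the second library of day 6. Mmp12, the macrophage elastase, had 145, 89.9 and 70.6 CPM on day 6 and 27.8, 13 and 19.7 CPM on day 3 (log2 change 2.33 ± 0.40, adjusted p = 1.56e-04, edgeR). Timp2, an inhibitor of matrix metalloproteinases, had 302, 304 and 483 CPM on day 6 and 67.1, 49.4 and 50.5 CPM on day 3 (log2 change 2.71 ± 0.51, adjusted p = 4.45e-04, edgeR). Its relative Timp1 went the other way, with 0.513, 0.371 and 1.11 CPM on day 6 and 15.3, 34.7 and 16.8 CPM on day 3 (log2 change -5.01 ± 0.89, adjusted p = 2.07e-04, edgeR, or -5.61 without the third library of day 6). All 3 genes were apart between the days. Mmp9, gelatinase B, fell with 3.08, 1.49 and 2.29 CPM on day 6 and 23.9, 69.0 and 40.7 CPM on day 3, and DESeq2 did not call it (adjusted p = 0.055). It is also on the neutrophil list. Serpinb2, an inhibitor of plasminogen activators, had 0 counts on day 6 and 166 on day 3, at least 52.1-fold lower, taking 3 counts for the whole group as the floor, and DESeq2 did not call it (adjusted p = 0.33). Mmp14 did not pass (697, 606 and 756 CPM on day 6 and 1337, 1279 and 1395 CPM on day 3, log2 change -0.96 ± 0.48, adjusted p = 0.142, edgeR), though its groups did not overlap and it was called in fits of the 12 recruited libraries (adjusted p = 0.035) and of the 6 libraries alone (6.47e-04).

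Genes for the clearance of dead cells rose in part, and lysosome genes leaned higher. Of 23 efferocytosis genes, 8 were higher and 2 were lower, also without the second library of day 6. Their median log2 change was 0.19. The summed level of the listed genes overlapped, with 9973 to 11920 CPM on day 6 and 10140 to 10780 CPM on day 3. Mertk, a receptor for dying cells, had 360.1, 384 and 419.6 CPM on day 6 and 153, 199 and 261 CPM on day 3 (log2 change 0.92 ± 0.16, adjusted p = 8.53e-05, edgeR). Its relative Axl had 774, 805 and 743 CPM on day 6 and 466, 289.8 and 189 CPM on day 3 (log2 change 1.3 ± 0.25, adjusted p = 4.21e-04, edgeR). Pros1, protein S, which bridges these receptors to dying cells, had 53.6, 84.0 and 88.5 CPM on day 6 and 17.2, 13.1 and 17.9 CPM on day 3 (log2 change 2.23 ± 0.19, adjusted p = 9.95e-09, edgeR). All day 6 libraries lay above all day 3 libraries for the 3 genes. Gas6, the other bridging protein, had 5.57, 6.41 and 16.1 CPM on day 6 and 0.608, 0.628 and 0.291 CPM on day 3, a log2 change of 4.19 ± 1.24, adjusted p = 0.0139 (edgeR) that was not called without the third library of either day (adjusted p = 0.051 without that of day 6 and 0.058 without that of day 3). Of 37 lysosome genes, 13 were higher and 1 was lower, or 12 and 1 without the second library of day 6. Ctsd, cathepsin D, had 15830, 17660 and 18760 CPM on day 6 and 7376, 6171 and 5658 CPM on day 3 (log2 change 1.44 ± 0.32, adjusted p = 0.00128, edgeR), and Hexa, a subunit of the ganglioside-degrading hexosaminidase, had 1431, 1501 and 1276 CPM on day 6 and 753, 599 and 584 CPM on day 3 (log2 change 1.12 ± 0.14, adjusted p = 1.36e-06, edgeR). Of 25 genes of cholesterol efflux and lipid storage, 8 were higher and 3 were lower, or 7 and 3 without the second library of day 6, and the 8 became 5 without the third of day 3. Apoc1 (1.53 ± 0.46) and Apoc4 (3.83 ± 0.77), neighbours of Apoe on chromosome 7, were higher at 3.81 CPM or less in every library. Apoc1 was not called without the third library of day 3 (adjusted p = 0.068), and Apoc4 was at 4.63 without the first. The sterol sensor gene Nr1h3 was lower (-1.37 ± 0.15), and the cholesterol exporter gene Abca1 did not pass (-0.08 ± 0.47). Scavenger receptors gave 4 higher and 0 lower of 16, or 3 and 0 without the second library of day 6, and 2 were lower without the first of day 3. Cholesterol synthesis gave 2 higher and 0 lower of 22, and the 2 became 1 without any single library other than the first of day 6.

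Glycolysis genes fell together. Of 20 glycolysis genes, 16 were lower and 1 was higher, with a median log2 change of -0.87, or 14 and 1 without the second library of day 6. Hk3, a myeloid hexokinase, had 104, 136 and 148 CPM on day 6 and 626, 902 and 655 CPM on day 3 (log2 change -2.50 ± 0.23, adjusted p = 4.92e-08, edgeR). Ldha, which turns pyruvate into lactate, had 419.5, 471 and 570.2 CPM on day 6 and 1265, 1081 and 1475 CPM on day 3 (log2 change -1.39 ± 0.22, adjusted p = 3.74e-05, edgeR). Pfkfb4, a regulator of glycolytic flux, was the higher one, with 93.1, 114 and 109.8 CPM on day 6 and 50.0, 49.6 and 54.3 CPM on day 3. Each of these genes was apart between the days. Of 40 subunits of the respiratory chain, 20 were lower and 0 were higher, with small changes (median -0.33). That count was 12 without the second library of day 6, 11 without the first of day 6 and 13 without the third of day 3. Citrate cycle genes gave 3 higher and 8 lower of 22, or 2 and 4 without the second library of day 6. The 8 also became 3 without the first library of day 6, and 1 without the third of day 3 or with scaling by library size alone. The 3 became 5 without the first library of day 6, and 1 without the third of day 6 or the second of day 3. Fatty acid oxidation gave 6 higher and 5 lower of 25, or 6 and 3 without the second library of day 6, among the higher the peroxisomal oxidase gene Acox3 (0.87 ± 0.11). Of 16 hypoxia-responsive genes, 7 were lower, or 5 without the second library of day 6 and 2 without the first, and 1, Vegfa, was higher, also without the third library of day 6 but not without any other.

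Of 22 redox genes, 11 were lower and 1 was higher, or 8 and 0 without the second library of day 6. The 1 higher, Cat, was also lost without the third of day 6 or the first or the second of day 3. Sod2, the mitochondrial superoxide dismutase, had 178, 169 and 182 CPM on day 6 and 1145, 1349 and 1361 CPM on day 3 (log2 change -2.87 ± 0.25, adjusted p = 1.91e-08, edgeR). Prdx5, a peroxiredoxin, had 299, 333 and 334 CPM on day 6 and 1250, 1557 and 1567 CPM on day 3 (log2 change -2.18 ± 0.15, adjusted p = 3.51e-10, edgeR). Both groups were tight and apart. Iron handling gave 7 lower of 17, or 6 without the second library of day 6, and 1 higher, which was Trf. Hmox1, the heme-degrading oxygenase, had 286, 293 and 772 CPM on day 6 and 1235, 1470 and 1610 CPM on day 3 (log2 change -1.68 ± 0.50, adjusted p = 0.0152, edgeR), and the third day 6 library was the highest of its group. Without that library the log2 change was -2.31, and the call was lost without the first or the second of day 6 (adjusted p = 0.081 and 0.073). Of 30 cell death genes, 19 were lower and 1 was higher, or 15 and 1 without the second library of day 6. The necroptosis genes Mlkl (-2.31 ± 0.32) and Ripk3 (-1.69 ± 0.29) and the pyroptosis pore gene Gsdmd (-1.16 ± 0.12) were lower, and the survival gene Bcl2 (0.85 ± 0.26) was higher. Bcl2 was not called without the first library of day 6 (adjusted p = 0.11) or the second or the third of day 3 (0.053 and 0.094). Of 17 complement genes, 6 were lower, or 4 without the second library of day 6, and 0 were higher. Cfb, factor B, had 77.1, 123 and 85.2 CPM on day 6 and 634, 587 and 532 CPM on day 3 (log2 change -2.62 ± 0.48, adjusted p = 2.87e-04, edgeR).

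Among 31 transcription factors of macrophages, 9 were higher and 9 were lower, or 6 and 7 without the second library of day 6. The 9 lower became 5 without the second library of day 3. Cebpa, which drives myeloid differentiation, had 329, 413 and 386 CPM on day 6 and 143, 113 and 112 CPM on day 3 (log2 change 1.61 ± 0.18, adjusted p = 3.8e-07, edgeR). Irf4, a factor of alternative activation, had 8.28, 8.17 and 9.00 CPM on day 6 and 2.63, 0.628 and 1.24 CPM on day 3 (log2 change 2.47 ± 0.47, adjusted p = 3.48e-04, edgeR, or 3.16 without the first library of day 3). Both rose without overlap. Cebpb (-0.24 ± 0.23) and Maf (-0.83 ± 0.51), factors of mature macrophages, did not pass.

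The same days were compared in resident cells to see where the recruited change differed. There 3329 of 13599 genes passed (24.5%), 1519 higher and 1810 lower on day 6, or 5441 when the 6 resident libraries alone were fitted with a replicate block. Both populations called 1647 genes in the same direction and 70 in opposite directions. The recruited minus resident difference of the changes passed the test for 1147 genes (8.43%), 568 higher (4.18%) and 579 lower (4.26%). Recruited and resident libraries of the same day and number deviated together, and with 1 block for each day and number the difference passed for 2198 genes, 1132 higher and 1066 lower. Inflammatory mediators fell in both populations: 22 of 30 were lower in resident cells, with a median log2 change of -3.52. The difference was called for 2 higher and 2 lower. Of 17 genes induced by interferon-γ, 15 were lower in resident cells. The difference was called for 8, all towards a larger fall in recruited cells, or 3 without the second library of recruited day 3. Of 16 genes of MHC class I loading and the immunoproteasome, 13 were lower in resident cells. The difference was called for 7, all in that direction, but not for the class I genes B2m, H2-D1 or H2-K1. With the block of day and number it was called for H2-K1 (adjusted p = 0.0068, edgeR).

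Interferon-stimulated genes fell further in recruited than in resident cells. In resident cells 19 of 38 were lower and 1 was higher on day 6. Those counts were 28 and 0 without the first library of resident day 6, and 10 and 0 in a fit of the 6 resident libraries alone. The difference was called for 25 of the 38, all towards a larger fall in recruited cells, or 28 with the block of day and number. The 25 became 14 without the first library of resident day 6, and 17 without the second of recruited day 6 or the second of resident day 3. The resident summed level of the 39 listed genes was 1667 to 2976 CPM on day 6 and 3445 to 4494 CPM on day 3, while the recruited level was 1989 to 3090 CPM on day 6 and 9187 to 11420 CPM on day 3. Ifit1 changed by -2.35 in resident cells, a difference of -2.40 (adjusted p = 0.043, edgeR) that was -1.24 without the first library of resident day 6.

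Proliferation genes fell less in recruited than in resident cells, from lower summed levels on day 3. DNA replication genes summed to 359 to 454 CPM in recruited cells on day 6 and 434.5 to 542.5 CPM on day 3. Resident cells had 554 to 725 CPM on day 6 and 1945 to 2169 CPM on day 3. Mitosis genes summed to 167 to 278.5 CPM in recruited cells on day 6 and 267 to 408 CPM on day 3. Resident cells had 445 to 692 CPM on day 6 and 2098 to 2380 CPM on day 3. Of 30 DNA replication genes, 30 were lower in resident cells on day 6, while in recruited cells 6 were lower and 24 did not pass. The recruited count was 0 without the first library of day 3 (1 was higher there), 1 without the first or the second of day 6, 3 without the third of day 3 or with scaling by library size alone, and 8 without the third of day 6. The difference was called for 19 of 30, all towards a smaller fall in recruited cells, or 24 with the block of day and number and 13 without the third library of recruited day 3 or the second of resident day 6. Mcm2, a subunit of the replicative helicase, had 12.2, 14.9 and 20.1 CPM on day 6 and 18.1, 15.4 and 18.4 CPM on day 3 in recruited cells, with overlap. Its resident change was -2.17 and the difference was 2.03 (adjusted p = 3.78e-04, edgeR). Of 26 mitosis genes, 25 were lower in resident cells and 2 in recruited cells, and the difference was called for 4, or 18 with the block, 11 with DESeq2 and 2 without the second library of recruited day 3 or of resident day 6. The recruited count was 0 without the first or the second library of day 6 or the first of day 3, and 1 without any other, and 3 were higher without the first of day 3. Mki67, the proliferation marker, had 72.4, 64.1 and 89.4 CPM on day 6 and 198, 204 and 134 CPM on day 3 in recruited cells, and 120.2, 77.7 and 114 CPM on day 6 and 533, 502 and 538 CPM on day 3 in resident cells. Its recruited fall (log2 change -1.25 ± 0.40, adjusted p = 0.0212, edgeR) was not called without the first or second library of either day (adjusted p between 0.054 and 0.078), and its difference of 1.09 did not pass (adjusted p = 0.255, edgeR), while with the block of day and number it was 1.12 and passed (adjusted p = 0.0068).

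**Figure D4:**
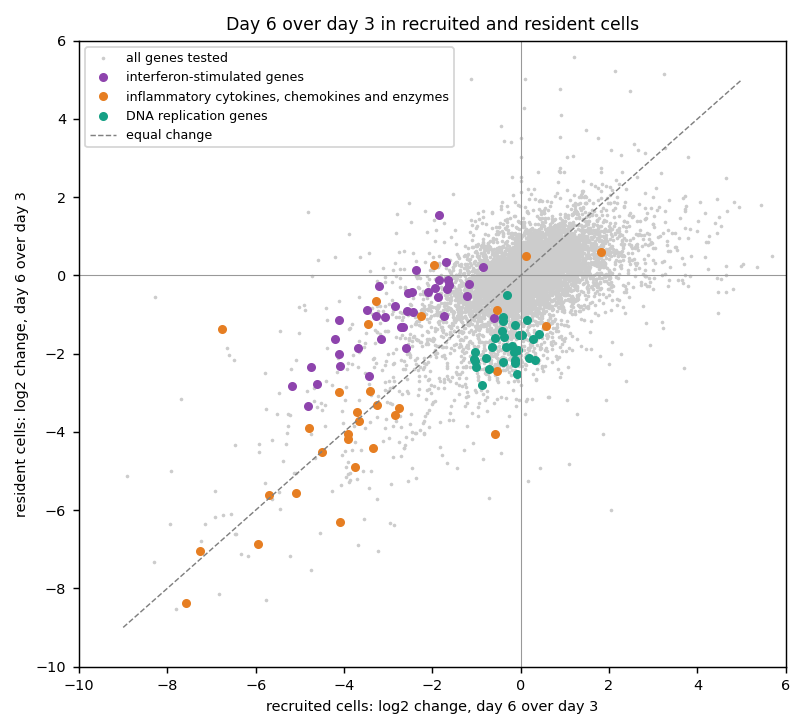
Log2 change of day 6 over day 3 in recruited cells (x axis) and in resident cells (y axis) for all 13599 genes (grey) and 3 lists (colour); the dashed line marks equal change. Interferon-stimulated genes lie mostly above the line, and DNA replication genes lie mostly below it. Of the 38 interferon-stimulated genes, 37 fell in recruited cells and 19 in resident cells, or 28 there without the first library of resident day 6.

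Some macrophage genes rose in recruited cells by more than in resident cells. Mmp12 differed by 2.75 (adjusted p = 0.00379, edgeR) and Mrc1 by 2.29 (adjusted p = 0.0117, edgeR), and both differences were called under all 19 alternatives. Mrc1 was still lower in recruited cells, with resident levels of 1687, 2263 and 1965 CPM on day 6 and 1524, 1841 and 1409 CPM on day 3. Gpnmb differed by 2.29 (adjusted p = 0.0386, edgeR), which was called under 7 of 19 alternatives and lost when any 1 of the 12 libraries other than the first of recruited day 3 was left out. For Csf1, the gene of the macrophage growth factor, the difference was 3.48 (adjusted p = 2.68e-04, edgeR), since its resident change was -4.05 and its recruited change -0.57 ± 0.31.

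The later days place both groups in a course. Nos2 had 4.33, 1.73 and 2.47 CPM in recruited cells on day 9 and 1.44, 1.68 and 2.87 CPM on day 12, below the day 6 level in every library. Ly6c2 had 64.8, 221 and 48.1 CPM on day 9 and 37.4, 20.7 and 18.6 CPM on day 12. Mrc1 had 285, 466 and 941 CPM on day 9 and 605, 1032 and 952 CPM on day 12, so all day 12 libraries were above all day 6 libraries. Apoe had 8710, 19810 and 7733 CPM on day 9 and 19520, 4503 and 5963 CPM on day 12, a range that holds the day 6 values. Spp1 spread widely, with 282, 12950 and 1757 CPM on day 9 and 13440, 595 and 757 CPM on day 12. These levels are given as a description, with no test.

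**Figure D5:**
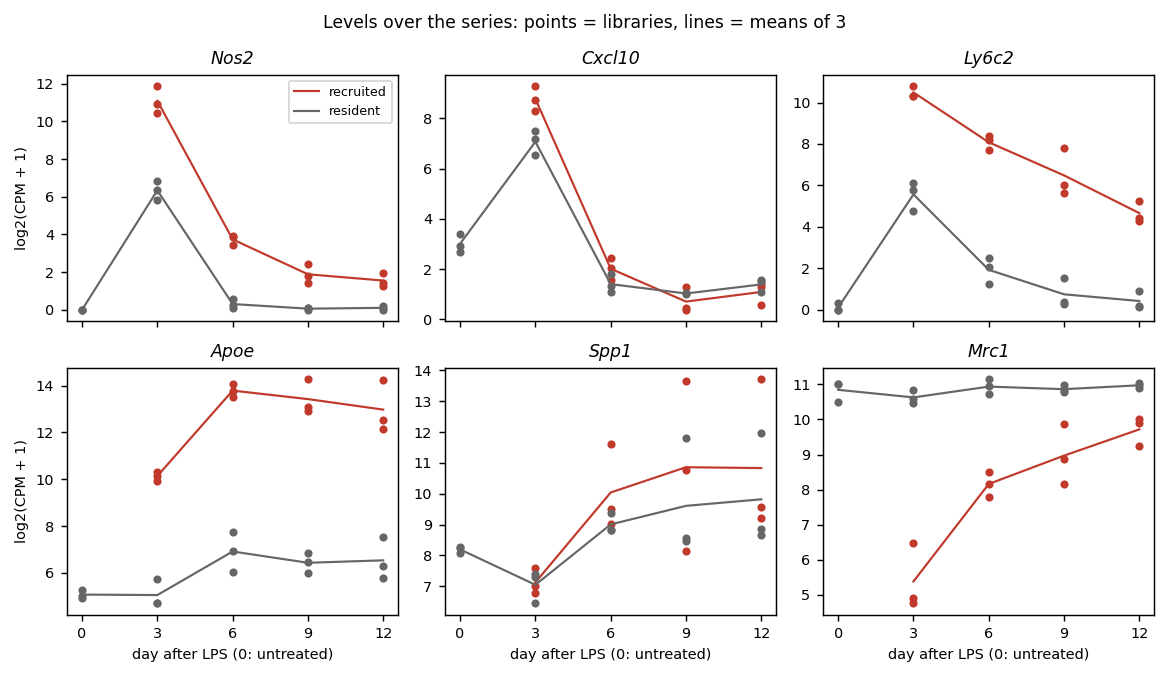
Log2(CPM + 1) of 6 genes by day after LPS in recruited cells (red, days 3 to 12) and resident cells (grey, days 0 to 12, day 0 untreated); points are libraries and lines are means of 3. Nos2 and Cxcl10 drop between day 3 and day 6 in both populations, and Mrc1 climbs in recruited cells with every day 12 library above every day 6 library.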

How the data were processed

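The authors deposited raw read counts for Ensembl genes, with no scaling. R 3.1.0, DESeq2 1.4.5, HTSeq 0.6.0, STAR 2.4.0a and mm10 appear in the submitters' processing notes. Not given in the sources used here are the strand option and the annotation release, so reads of overlapping genes may be shared. Reads not assigned to a gene, deposited as counts in a second table, stayed out of library sizes and tests: 6.77% to 26.5% lay outside genes and 1.01% to 1.66% were ambiguous. Totals were 11093216 to 18299674 counts per library. Symbols and positions came from GENCODE M21 (36345 of 38124 genes).

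Genes were kept with filterByExpr (minimum count 10, minimum total 15) and tested in R 4.3.3 by edgeR 4.0.16, with TMM scaling, all 27 libraries with 1 mean per group (18 residual degrees of freedom), the robust quasi-likelihood F test and Benjamini-Hochberg adjustment over all genes, with a threshold of 0.05. SE is the absolute log2 change divided by the square root of F. The smallest two-sided p of an exact permutation test on 3 and 3 libraries is 0.1. Alternatives were other scalings and filters, DESeq2 1.42.0, fewer libraries, replicate blocks and leaving out each library. The pipeline was tested on simulated counts. The block of day and number across populations was added after the data were seen; there, and between resident day 6 and day 3, the numbers pair the libraries by the data (every correlation over 0.1), not by the labels: the deviations of same-numbered libraries correlated over genes by 0.17 to 0.29 across populations and by 0.11 to 0.26 across the resident days.

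The groups, lists and members were chosen with earlier results of these data known. Genes were named by rule: up to 4 per list by size among called genes whose libraries did not overlap, the 12 most raised and 12 most lowered with at least 20 CPM in the higher group, a fixed set, and up to 10 that moved in opposite directions in the populations. Other list members named were chosen after their values were seen. The lists hold 931 entries, of which 926 matched a gene. Lists with no count in the text above, beside those in the closing section, gave 1 higher and 2 lower of 8 S100 genes (0 lower without the first or the second library of day 6 or the third of day 3), 0 and 2 of 17 immediate early and heat shock genes (4 lower without the first library of day 3), 1 and 2 of 21 T and NK cell markers, 0 and 0 of 2 B cell markers, 2 and 0 of 11 dendritic cell markers (1 and 1 without the first library of day 6), 0 and 0 of 4 erythroid markers, and 1 and 3 of 6 endothelial and stromal markers. No eosinophil or basophil marker passed the filter. Some list members are not reported here.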

Additional observations from a re-analysis of the deposited data

Results flagged for a closer look

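The change from day 3 to day 6 differed between recruited and resident cells for 1147 genes by the test of the difference (edgeR). The 10 largest differences among genes that moved in opposite directions, by the naming rule, are given first, as recruited minus resident log2 change. Ifi27l2a, an interferon-stimulated gene, differed by -3.40: it was -1.84 in recruited and 1.56 in resident cells, and its recruited call was lost without the second library of day 6 (adjusted p = 0.051). Its resident rise was not called without the first library of resident day 6 or the second or the third of resident day 3. Without the first library of resident day 6 its difference was -2.32. Scarf1, a scavenger receptor gene, differed by -2.38, Jarid2, a gene of a chromatin regulator, by -1.65, and Rab11fip1, an endosome gene, by -1.58, all lower in recruited and higher in resident cells. Jarid2's recruited call was lost without the second library of day 3 (adjusted p = 0.060). Higher in recruited and lower in resident cells were Cenpa (difference 2.30), which encodes the centromeric histone, Cep170b (1.66), Slc17a9 (1.64), a nucleotide transporter gene, Paqr4 (1.61), Cbx5 (1.5), which encodes a heterochromatin protein, and 4931406C07Rik (1.46). The differences of these 10 genes were called under all 19 alternatives. The recruited call of Cenpa was lost without the second or the third library of day 3 or the third of day 6 (adjusted p between 0.061 and 0.082), and that of Cbx5 without the second or the third of day 3 or the first or the third of day 6 (between 0.061 and 0.18).

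Genes of the fixed set with a tested difference were Mmp12 (2.75), Mrc1 (2.29), Vegfa (3.16), Itgam (2.65), Gpnmb (2.29), Ifit1 (-2.40), Ccr2 (-2.35) and Csf1r (-0.61). Mmp12 and Mrc1 were called under all 19 alternatives, Itgam under 15, Vegfa and Ccr2 under 12 each, Ifit1 under 11, Csf1r under 8 and Gpnmb under 7. That of Itgam was lost without the second library of recruited day 3, the second of resident day 6 or the third of resident day 3 (adjusted p between 0.055 and 0.063). That of Vegfa was lost without the first library of recruited day 6, the second or the third of recruited day 3, the second or the third of resident day 6 or the first of resident day 3 (adjusted p between 0.064 and 0.14). That of Ccr2 was lost without the second library of recruited day 6, recruited day 3 or resident day 3, the third of recruited or resident day 3, or the first of resident day 6 (adjusted p between 0.052 and 0.062). That of Ifit1 was lost without the first library of resident day 6 (-1.24, adjusted p = 0.27) and without 6 others (adjusted p between 0.062 and 0.11), namely the second and the third of recruited day 6 and day 3 and the first and the second of resident day 3. Leaving out any library but the first or the second of recruited day 3 or the third of resident day 6 lost Csf1r (adjusted p between 0.051 and 0.10), and leaving out any but the first of recruited day 3 lost Gpnmb. Vegfa lay between 72.0 and 248 CPM on day 6 and between 42.2 and 63.7 CPM on day 3 in recruited cells, while resident cells had 1.67, 0.261 and 0.709 CPM on day 6 and 4.99, 1.83 and 2.25 CPM on day 3. Itgam fell in resident cells (-3.10) and did not pass in recruited cells.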

How the results depend on the processing

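Of 2662 values for 178 named genes under 15 alternatives, 2468 kept their direction and call, 184 were no longer called, 10 became called and 0 reversed. Most of the 178 were named because they were called and did not overlap, which favours a stable direction and call. Genes outside the 178 could change sign, as H2-Aa did (log2 change from -0.76 to 0.26 over the alternatives). Of 1320 list counts, 1175 stayed within 1.5 times. Leaving out single libraries gave 3389 to 4073 recruited calls, 1968 to 2865 resident calls and 781 to 1390 calls of the difference; the resident count was 2165 without the second library of day 6 and 1968 without the third of day 3. The recruited count was 4476 with DESeq2, 3170 with only the 12 recruited libraries and 3656 with only the 6 of both days. With library size alone 70.7% of the called differences were higher, against 49.5%. Recruited day 6 and day 3 libraries of the same number did not pair by the rule of over 0.1 in every pair: their deviations correlated by 0.15, 0.087 and 0.21 over genes, although each correlated best with its own number. The resident ones did pair, with 0.24, 0.26 and 0.11. A replicate block gave 4331 recruited and 3391 resident calls and 1169 of the difference, or 4294 recruited and 5441 resident calls when fitted to the 6 libraries alone, a fit in which Mrc1, Ciita, Rsad2, B3gnt7 and Bhlhe41 were not called in recruited cells (edgeR adjusted p = 0.13, 0.17, 0.0504, 0.057 and 0.078). The block of day and number gave 2198 of the difference. A count of 0 to 3 over a group limits what can be said of Il10, Csf3, Ereg, Serpinb2 and Retnla.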

Other observations

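Gene families outside the lists were looked at after the data were seen. Of 35 constitutive proteasome subunits, 32 were lower in recruited cells on day 6 and 0 were higher (median log2 change -0.77), and 20 were lower in resident cells. Of 74 mitochondrial ribosomal proteins, 22 were lower and 0 were higher. Of 7 protein genes encoded by mitochondrial DNA, 3 were higher and 0 were lower (median 0.87). Of the Y-linked genes tested, Kdm5d (0.40), Ddx3y (0.49) and Uty (0.56) were higher on day 6, and 0 of these calls remained without the first library of day 6 or the third of day 3.

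Several genes split the recruited libraries within a day. Arg1 had 159, 221 and 760 CPM on day 6, 16.3, 631 and 485 CPM on day 9 and 198, 15.4 and 14.0 CPM on day 12. C1qa had 155, 1528 and 227 CPM on day 9 and 1239, 89.2 and 100.2 CPM on day 12, and Igf1 had 9.61, 154 and 24.6 CPM on day 9 and 218, 18.6 and 15.5 CPM on day 12. On day 9 the second library, and on day 12 the first, were the highest of their group for Arg1, C1qa, Igf1, Spp1 and Apoe. These are values with no test.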
